A study of Rattus norvegicus with 24 samples.

Results

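The mitochondrially encoded RNAs of a rat testis culture model were followed across 8 groups of 3 RNA sequencing libraries. They were taken by name from a table of 21425 genes: 13 rows that begin with Mt-, the protein-coding genes of the mitochondrial genome, and 24 rows that begin with AY172581., the mitochondrial ribosomal and transfer RNAs, 37 rows in all. The table does not say which AY172581. row is which ribosomal or transfer RNA, and gives no lengths, so levels are compared only for the same row between groups.

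The cells came from testes of wild-type Sprague Dawley rats aged 5 days, with no cell type enriched or removed. A baseline experiment followed 1 litter, from the primary isolate (tissue in the text) to days 3, 5 and 7 in a matrix gel with serum-free medium. The 3 libraries of a baseline group are technical replicates, and p-values there measure technical spread rather than differences among litters. For the induction experiment 3 litters were cultured for 10 days and then given luteinizing hormone (LH, 50 mIU/mL) and follicle-stimulating hormone (FSH, 20 mIU/mL) in fresh medium. They were sampled before addition (0 h) and 2, 12 and 48 h after it, with 3 cultures of a litter pooled into 1 library per time. Untreated cultures of the later times and the 6 h samples were not analysed here, and effects of hormone, of fresh medium and of time cannot be told apart.

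The mitochondrial genome is a small circle from which both strands are transcribed as long precursors. Transfer RNAs lie between most of the other genes, and cutting them out releases the messenger and ribosomal RNAs, whose levels then depend on how long each is kept. The messengers encode core subunits of respiratory complex I, complex III, complex IV and the ATP synthase (complex V), while every subunit of complex II and all proteins that copy, process and translate these RNAs are made from nuclear genes. In the testis, mitochondria supply ATP and also hold the side-chain cleavage step that starts steroid synthesis in Leydig cells.

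Levels are in CPM, reads scaled to a common library total, from libraries of 17.3 to 30.4 M reads in the baseline and 15.8 to 28.3 M reads in the induction experiment. Changes are log2 fold changes ± SE on log2(CPM + 1) with n = 3 libraries per group, and a row is called changed at a limma p under 0.05 after Benjamini-Hochberg adjustment over all genes tested. Germ cell markers summed to 519 to 560 CPM in tissue and 87.0 to 128 CPM at day 3, with 8 of 9 lower. Sertoli cell markers summed to 2859 to 2940 and 5152 to 5459 CPM, with 7 of 9 tested higher and 1 lower, and myoid cell markers to 1336 to 1505 and 2833 to 3346 CPM, with 5 of 6 higher. Over all genes tested, 26.8% were called lower and 29.1% higher at day 3. Mesothelial markers were near 0 in tissue, at 0.789 to 1.61 CPM, and reached 114 to 133 CPM at day 3. Other lists were mixed, with 2 of 6 Leydig cell markers higher and 3 lower, and 1 of 4 endothelial markers higher and 2 lower. Macrophage markers summed to 25.7 to 35.9 and 8.83 to 17.9 CPM, with 1 of 5 higher and 1 lower. The part of this change in cell types in the results on mitochondrial RNA was not tested, and in bulk RNA fewer cells of a type and less RNA per cell cannot be told apart.

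The 13 Mt- rows together took 2.45%, 3.46% and 2.56% of reads in the tissue libraries. They took 2.33%, 2.21% and 1.03% at day 3, 3.26%, 1.68% and 1.85% at day 5, and 1.95%, 1.87% and 2.28% at day 7. Of the 9 culture libraries 8 were below every tissue library, and day 5 replicate 1 was within the tissue range. Within their groups 2 libraries stood apart. In day 3 replicate 3, 12 of the 13 rows were below the mean of the other 2 libraries, with a median ratio of 0.426, and Mt-nd3 alone was above it, at 1.35. In day 5 replicate 1 all 13 rows were above, with a median ratio of 1.96. Calls that were gained or lost on leaving out either library are given below.

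**Figure D1:**
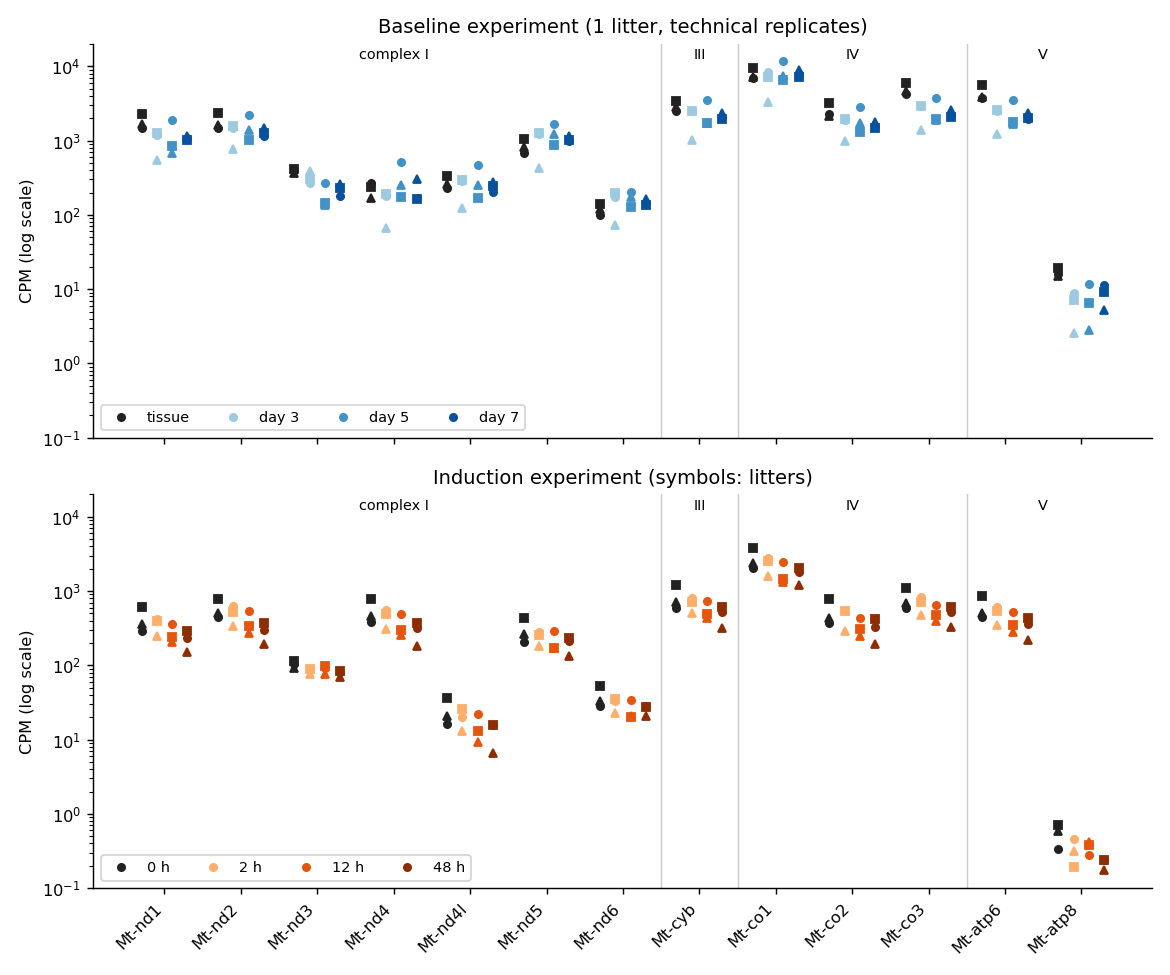
Level of each Mt- row in every library, in CPM on a log scale, with genes ordered by respiratory complex and coloured by group; circles, squares and triangles are replicates 1, 2 and 3 (litters 1, 2 and 3 in the lower panel). Mt-co3 and Mt-atp6 sit lower in every day 7 library than in any tissue library, and the day 3 triangle is the lowest of its group for all rows but Mt-nd3.

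Of the 13 Mt- rows, 4 were lower at day 3 than in tissue and none was higher. Over all 13055 genes tested, 26.8% were called lower and 29.1% higher in that comparison. At day 5 again 4 were lower and none higher, beside 30.3% and 29.6% of all genes, and at day 7 3 were lower and none higher, beside 31.4% and 28.5%. The 3 comparisons share the tissue libraries. The median log2 fold change of the 13 rows was -0.63, -0.41 and -0.45 at days 3, 5 and 7, against 0.02, -0.03 and -0.05 for all genes tested. Without day 3 replicate 3 the day 3 call was 2 lower and 2 higher of 13, the latter being Mt-nd5 and Mt-nd6, beside 26.7% and 28% of all genes in that fit. Without day 5 replicate 1 the day 5 call was 6 lower and none higher, Mt-nd1 and Mt-co2 being added, beside 27.5% and 27.3%.

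Complex IV, cytochrome c oxidase, passes electrons to oxygen, and its 3 mitochondrial subunits did not move alike. Mt-co3, which encodes subunit 3, was at 4298, 6043 and 4601 CPM in the tissue libraries. It was at 2966, 2889 and 1408 CPM at day 3, at 3742, 1947 and 1872 CPM at day 5, and at 2180, 2107 and 2608 CPM at day 7. No culture library reached the lowest tissue library. Mt-co3 fell by 1.10 ± 0.30 on the log2 scale at day 3 (adjusted p = 0.00622), by 1.04 ± 0.30 at day 5 (adjusted p = 0.00795) and by 1.11 ± 0.30 at day 7 (adjusted p = 0.0055).

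Mt-co1, which encodes the catalytic subunit 1, was at 6904, 9472 and 7112 CPM in tissue. It was at 8516, 7081 and 3267 CPM at day 3 and at 7837, 7105 and 8859 CPM at day 7. Tissue and cultures overlapped, and the day 7 difference was 0.03 ± 0.31 (adjusted p = 0.942). Mt-co2, which encodes the subunit that receives electrons from cytochrome c, was at 2267, 3228 and 2177 CPM in tissue and at 1523, 1476 and 1788 CPM at day 7. All 3 day 7 libraries were below tissue, but the difference of -0.66 ± 0.29 did not pass (adjusted p = 0.0603). It passed under 4 of 21 alternative settings, among them leaving out day 3 replicate 3 (adjusted p = 0.0248) or day 5 replicate 1 (adjusted p = 0.0332), libraries outside the contrast that enter only its spread. At day 3 the Mt-co2 difference was -0.70 ± 0.29 (adjusted p = 0.0513), which passed under 6 of 21 alternatives, among them without day 5 replicate 1 (adjusted p = 0.0278). At day 5 it was -0.44 ± 0.29 (adjusted p = 0.194), and without day 5 replicate 1 it was -0.75 (adjusted p = 0.034).

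Complex V makes ATP, and its membrane subunit a is encoded by Mt-atp6. Mt-atp6 was at 3751, 5598 and 3872 CPM in tissue, at 2524, 2589 and 1241 CPM at day 3, at 3537, 1784 and 1652 CPM at day 5 and at 1949, 1991 and 2376 CPM at day 7. Here too every culture library lay below every tissue library. The fall was 1.11 ± 0.31 at day 3 (adjusted p = 0.0076), and Mt-atp6 fell by 0.99 ± 0.31 at day 5 (adjusted p = 0.0134) and by 1.05 ± 0.31 at day 7 (adjusted p = 0.00962). The day 5 call was lost without tissue replicate 2 or day 5 replicate 3 (adjusted p = 0.0622 and 0.0537).

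Mt-atp8, whose reading frame overlaps that of Mt-atp6, was counted at far fewer reads: 15.8, 19.3 and 14.9 CPM in tissue, 8.94, 7.22 and 2.59 CPM at day 3, 11.6, 6.49 and 2.86 CPM at day 5, and 11.5, 9.02 and 5.28 CPM at day 7. It fell by 1.40 ± 0.42 at day 3 (adjusted p = 0.0121) and by 1.30 ± 0.42 at day 5 (adjusted p = 0.0168). At day 7 the difference was -0.93 ± 0.42 (adjusted p = 0.0724), although the groups did not overlap. It passed under 6 of 21 alternatives, among them without day 3 replicate 3 or day 5 replicate 1 (adjusted p = 0.0372 and 0.0492). Its day 3 call was lost without day 3 replicate 3 (adjusted p = 0.0567), and its day 5 call without tissue replicate 2 or day 5 replicate 3 (adjusted p = 0.0561 and 0.0784). Mt-atp8 is among the rows counted as lower at days 3 and 5. Its level is taken as uncertain, since some reads can be given to either overlapping row.

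Complex I, which takes electrons from NADH, has 7 mitochondrial subunits, and they spread from lower to slightly higher. Mt-nd1, a subunit of the membrane arm next to the quinone site, was at 1484, 2313 and 1650 CPM in tissue and at 1206, 1263 and 542 CPM at day 3. It fell by 0.92 ± 0.35 (adjusted p = 0.0387), a call lost under 6 of 21 alternative settings, among them leaving out day 3 replicate 3 (-0.53, adjusted p = 0.177), tissue replicate 2 (adjusted p = 0.141) or tissue replicate 3 (adjusted p = 0.0673). At day 5 and day 7 the Mt-nd1 difference was -0.80 ± 0.35 and -0.72 ± 0.35 (adjusted p = 0.066 and 0.0917). Without day 5 replicate 1 the day 5 difference was -1.23 (adjusted p = 0.00497), and it also passed without day 3 replicate 3 (adjusted p = 0.0279) and with the replicate block (adjusted p = 0.0474). The day 7 difference of Mt-nd1 passed without either library (adjusted p = 0.0422 without day 3 replicate 3 and 0.0381 without day 5 replicate 1).

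Mt-nd3, a small membrane subunit, was called at days 5 and 7 but not at day 3. It was at 401, 415 and 363 CPM in tissue and at 265, 307 and 387 CPM at day 3, where the groups overlapped. It was at 269, 146 and 137 CPM at day 5 and at 182, 227 and 259 CPM at day 7, all below tissue. The day 3 difference was -0.31 ± 0.22 (adjusted p = 0.244), whereas Mt-nd3 fell by 1.16 ± 0.22 at day 5 (adjusted p = 0.000513) and by 0.83 ± 0.22 at day 7 (adjusted p = 0.00527). The difference between day 7 and day 3, -0.52 ± 0.22, did not pass (adjusted p = 0.282), so a later fall is not shown by a test of its own.

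Mt-nd5, a proton-pumping subunit of the membrane arm, pointed the other way in most libraries. It was at 690, 1055 and 816 CPM in tissue, at 1222, 1273 and 425 CPM at day 3, at 1664, 880 and 1217 CPM at day 5 and at 987, 1007 and 1143 CPM at day 7. Of the 9 culture libraries, only day 3 replicate 3 was below the whole tissue range. The differences of 0.05 ± 0.34, 0.53 ± 0.34 and 0.31 ± 0.34 at days 3, 5 and 7 did not pass (adjusted p = 0.91, 0.2 and 0.452). Without day 3 replicate 3 the day 3 difference of Mt-nd5 was 0.57 (adjusted p = 0.045), and the day 5 difference passed (adjusted p = 0.0346).

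Mt-nd6 is the only protein gene on the other strand of the mitochondrial genome, and its neighbour across the strands is Mt-nd5. These libraries do not keep strand, so reads of Mt-nd6 and of antisense RNA cannot be told apart. Mt-nd6 was at 101, 141 and 118 CPM in tissue, at 174, 198 and 73.9 CPM at day 3 and at 147, 137 and 164 CPM at day 7. The differences of 0.20 ± 0.29 and 0.32 ± 0.29 did not pass (adjusted p = 0.583 and 0.359), and without day 3 replicate 3 that at day 3 was 0.64 (adjusted p = 0.0111). At day 5 the Mt-nd6 difference was 0.47 ± 0.29 (adjusted p = 0.174), and it passed without that library (adjusted p = 0.0248).

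For the other complex I rows the groups overlapped at day 3. Mt-nd2 was at 1501 to 2325 CPM in tissue and 768 to 1556 CPM at day 3 (-0.55 ± 0.29, adjusted p = 0.126). Mt-nd4 was at 170 to 273 and 66.4 to 192 CPM (-0.75 ± 0.42, adjusted p = 0.148), and Mt-nd4l at 232 to 330 and 122.3 to 292 CPM (-0.33 ± 0.35, adjusted p = 0.436). Mt-cyb, cytochrome b and the only mitochondrial subunit of complex III, was at 2532, 3423 and 2851 CPM in tissue and 2071, 1983 and 2368 CPM at day 7. It did not overlap at day 7, but the difference of -0.45 ± 0.32 did not pass (adjusted p = 0.245).

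**Figure D2:**
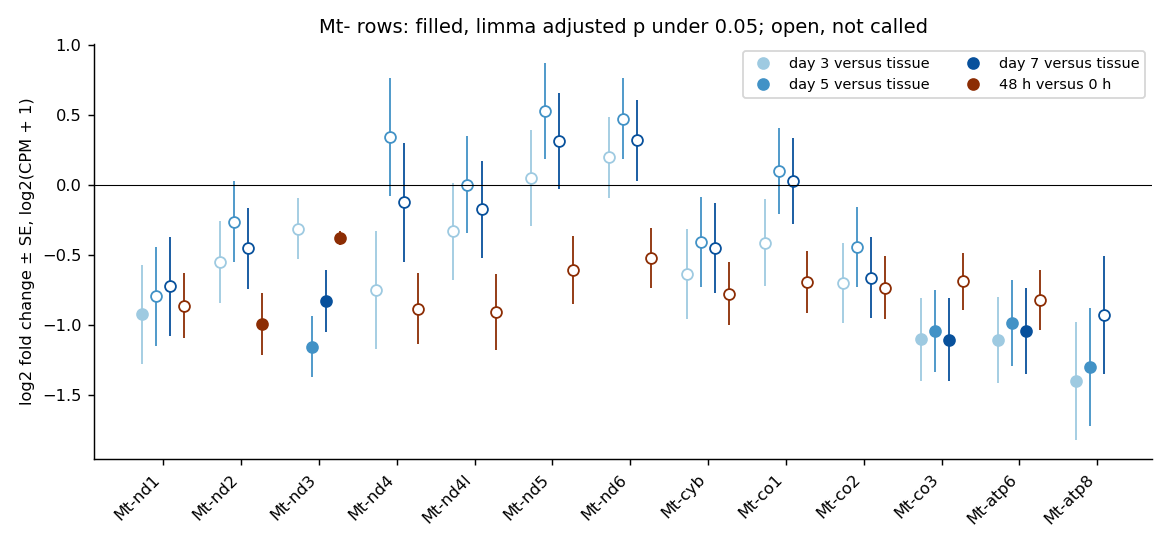
Log2 fold change ± SE (error bars) of each Mt- row on log2(CPM + 1) in 4 comparisons, 3 libraries per group; filled points have a limma adjusted p under 0.05. Mt-co3 and Mt-atp6 are filled at all 3 culture days, near -1, while Mt-co1, Mt-nd5 and Mt-nd6 lie around or above 0 at day 7 and below 0 at 48 h.

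At day 7, 8 of the 13 rows were lower than tissue without overlap, beside 37.6% of all genes tested, and none was higher without overlap, beside 33.8%. When only the tissue and day 7 libraries were fitted, leaving out the wider spread of days 3 and 5, 8 rows were called lower and 1, Mt-nd6, higher, beside 36.3% and 32.1% of all genes in that fit.

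The make-up of the Mt- reads differed between tissue and culture. Mt-co1 made up 27.8 ± 0.433% (SD, n = 3) of the reads in Mt- rows in tissue and 33.4 ± 2.76%, 38.4 ± 2.06% and 39.0 ± 1.13% at days 3, 5 and 7. Mt-co3 made up 17.7 ± 0.263% in tissue and 13.1 ± 0.444%, 11.1 ± 0.818% and 11.3 ± 0.147% in culture, and Mt-atp6 went from 15.5 ± 0.558% to 11.5 ± 0.608%, 10.2 ± 1.05% and 10.4 ± 0.326%. For these rows no culture library overlapped tissue at any day.

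The same held for the share of Mt-nd5, which was 3.02 ± 0.184% in tissue and 5.04 ± 0.844%, 5.65 ± 0.819% and 5.15 ± 0.194% in culture. Mt-nd6 went from 0.428 ± 0.0296% to 0.786 ± 0.0974%, 0.777 ± 0.159% and 0.734 ± 0.0162%, and Mt-nd1 from 6.40 ± 0.309% to 5.38 ± 0.292%, 4.83 ± 1.07% and 5.33 ± 0.28%. The share of Mt-cyb stayed between 9.45 and 11.4% in all 12 baseline libraries. Mt-co1 stood at 1.55 to 1.61 times Mt-co3 in the tissue libraries and at 2.32 to 3.93 times in the cultures, so within the same enzyme the messengers of 2 subunits changed unequally.

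Shares add up to a fixed total, so a higher share of Mt-co1 lowers the others, and they are given as a description. A fit of every gene relative to the summed Mt- rows, chosen after the data were seen, called 0 of the 13 rows at day 3, 5 or 7 with limma and with edgeR. It called 30.5% of all genes higher and 2.52% lower at day 3, 15.9% and 4.16% at day 5, and 19.8% and 4.22% at day 7. At an unadjusted p under 0.05 there were 1, 4 and 1 of the 13 rows with either tool. In that fit every nuclear gene carries the library differences of the Mt- total, which enters the spread used for each row. Mt-co1 at day 7 had a difference of 0.49 ± 0.39 in it, although its shares did not overlap tissue. The fit could hardly call a change of that size, so no conclusion on the make-up is drawn from the 0 calls.

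**Figure D3:**
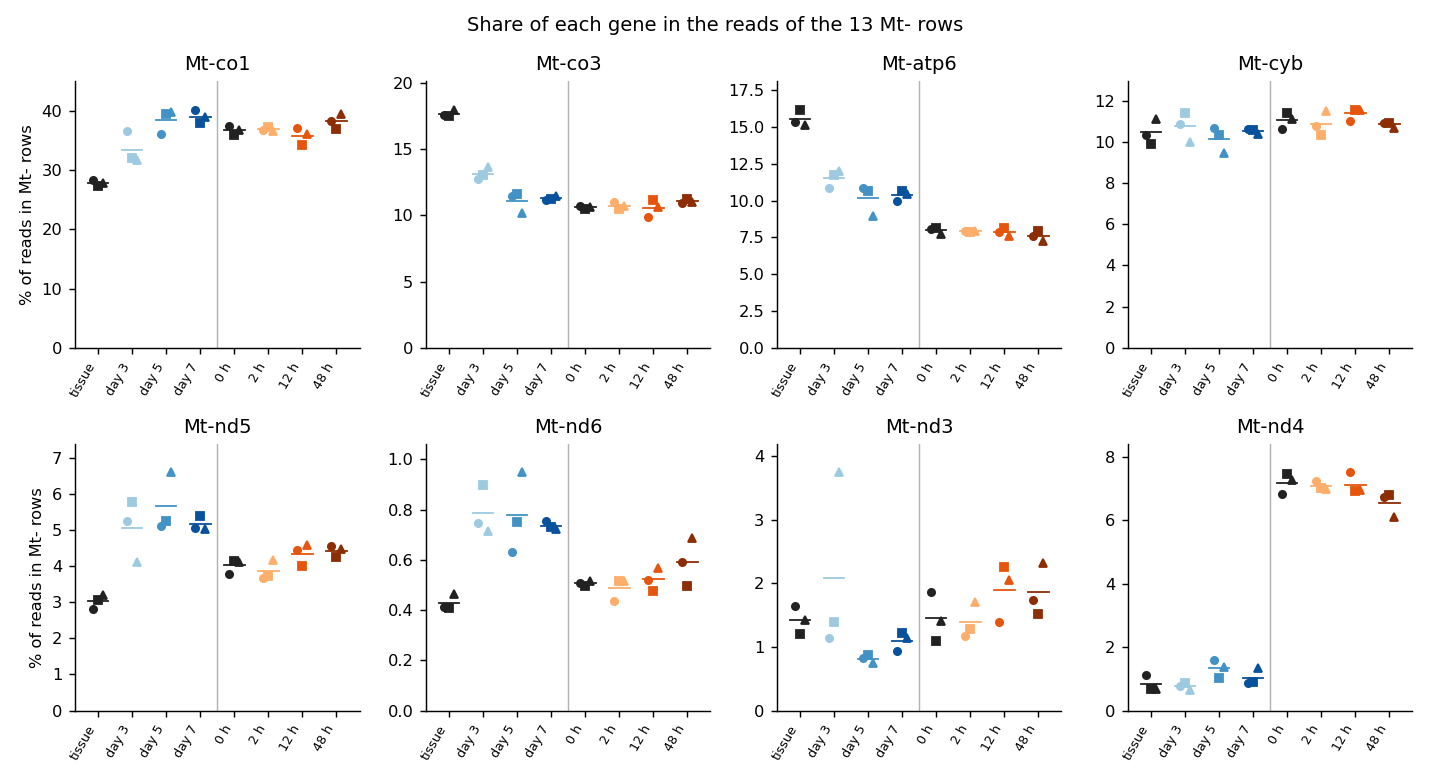
Share of 8 Mt- rows in the reads of all 13 Mt- rows, in percent, for every library (circles, squares and triangles are replicates 1, 2 and 3) with the group mean as a line; the baseline experiment is left of the grey line and the induction experiment right of it. Mt-co1, Mt-nd5 and Mt-nd6 take a larger and Mt-co3 and Mt-atp6 a smaller share in all 9 culture libraries than in tissue, and Mt-nd4 differs between the experiments.

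Among the ribosomal and transfer RNA rows, AY172581.24 and AY172581.9 changed by more on the log2 scale than any Mt- row at each culture day. Mitochondrial ribosomal RNAs form the core of the ribosome that translates the messengers above, though which rows hold them is not given. AY172581.24 was at 3609, 4756 and 3688 CPM in tissue and at 215, 262 and 159 CPM at day 3, 213, 141 and 240 CPM at day 5 and 113.8, 122.3 and 138.7 CPM at day 7. The mean was 19.0-fold lower at day 3 and 32.2-fold lower at day 7. AY172581.24 fell by 4.26 ± 0.20 on the log2 scale at day 3 (adjusted p = 2.98e-09), by 4.36 ± 0.20 at day 5 (adjusted p = 2.35e-09) and by 4.99 ± 0.20 at day 7 (adjusted p = 5.38e-10).

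AY172581.9 was also lower at each culture day. It was at 1284, 1566 and 1306 CPM in tissue, at 173, 190 and 134 CPM at day 3, at 171, 130 and 124 CPM at day 5 and at 109, 106 and 110 CPM at day 7. The mean was 8.35-fold lower at day 3 and 12.8-fold lower at day 7, with no library near the tissue range. AY172581.9 fell by 3.06 ± 0.14 at day 3 (adjusted p = 2.54e-09), by 3.29 ± 0.14 at day 5 (adjusted p = 1.3e-09) and by 3.66 ± 0.14 at day 7 (adjusted p = 3.67e-10). Both rows kept these calls under all 21 alternatives.

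These 2 rows held 91.7 to 99.4% of the reads of the AY172581. rows in every library. Per 100 reads in Mt- rows the AY172581. rows had 18.4 to 20.1 reads in tissue and 1.19 to 3.01 in the baseline cultures, without overlap. AY172581.24 stood at 2.81 to 3.04 times AY172581.9 in tissue and at 1.04 to 1.94 times in culture, so they also changed unequally. Libraries were made from RNA bound to poly-T beads, which captures an RNA by its poly-A tail, and mitochondrial ribosomal RNAs carry short tails. A list of 219 short nuclear RNAs, mostly without tails, summed to 65.1 to 84.1 CPM in tissue and 32.3 to 50.7 CPM at day 3. Of these, 24 were tested at day 3, and 10 were lower and 0 higher, beside 26.8% and 29.1% of all genes. A second such list, of 9 replication-dependent histone genes, went the other way. It summed to 20.8 to 27.2 CPM in tissue and 28.7 to 36.0 CPM at day 3, with 2 of 4 tested higher and 0 lower. The part of capture and of RNA quality in the fall of AY172581.24 and AY172581.9 was not tested.

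**Figure D4:**
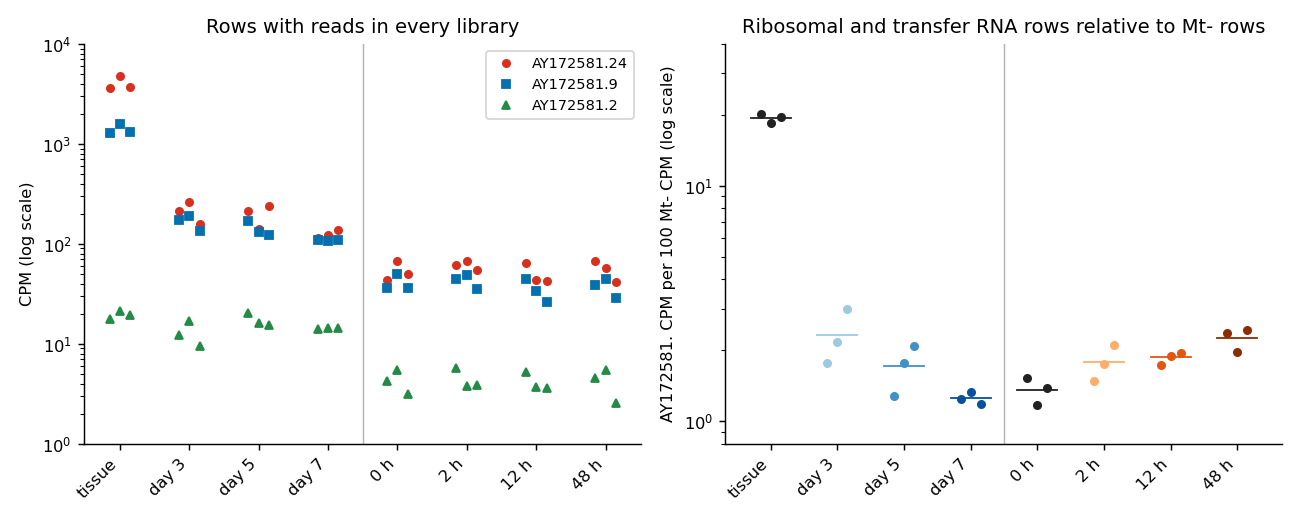
Left, the 3 AY172581. rows with reads in every library, in CPM on a log scale; right, CPM of all 24 AY172581. rows per 100 CPM in Mt- rows, on a log scale, with group means as lines. Tissue stands at 18.4 to 20.1 per 100 and all culture libraries at 3.01 or less.

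AY172581.2, the third row with reads in every library, changed much less. It was at 17.7, 21.5 and 19.4 CPM in tissue, at 12.2, 16.9 and 9.46 CPM at day 3 and at 14.1, 14.5 and 14.3 CPM at day 7. All day 3 and day 7 libraries were below tissue, while day 5, at 15.5 to 20.3 CPM, overlapped it (-0.17 ± 0.18, adjusted p = 0.431). AY172581.2 fell by 0.60 ± 0.18 at day 3 (adjusted p = 0.0117), a call lost under 1 of 21 alternatives, leaving out day 3 replicate 3 (adjusted p = 0.053). At day 7 the difference was -0.42 ± 0.18 (adjusted p = 0.0566), which passed under 5 of 21 alternatives, among them without day 3 replicate 3 (adjusted p = 0.0281).

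The other 21 AY172581. rows were at low levels. None passed 6.77 CPM in any library, and their sum was 12.3 to 17.9 CPM in tissue, 8.35 to 10.9 CPM at day 3, 6.58 to 10.95 CPM at day 5 and 5.98 to 6.80 CPM at day 7. Of the 24 rows, 5 had at most 3 reads in every baseline library, among them AY172581.13 with none in any of the 24 libraries. A count of 0 allows up to 3 reads, or 0.0987 to 0.174 CPM in the baseline libraries, for counting error only.

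Of the 24 AY172581. rows 8 passed the low-value filter in the baseline experiment, of which 3 would not have passed without the tissue libraries. AY172581.7 and AY172581.14 passed through tissue alone and so had to be lower in culture. AY172581.10 reached 1 CPM in 5 libraries of 3 groups. At day 3, 6 of the 8 rows were lower and 1 higher, beside 26.8% and 29.1% of all genes, and the filter favours lower calls in that count. AY172581.18, the 1 row called higher at day 3 (by 0.71 on the log2 scale), was at 2.94, 2.16 and 1.74 CPM in tissue. It was at 3.81, 3.02 and 6.77 CPM at day 3, and at 1.38, 1.34 and 2.08 CPM at day 7. The highest value came from day 3 replicate 3, which stood apart above. AY172581.16, the row next in level, was at 1.10 to 2.57 CPM in tissue and 0.0529 to 2.99 CPM at day 3, with the groups overlapping.

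Between day 3 and day 7 of culture 0 of the 13 Mt- rows were called in either direction by limma, edgeR or DESeq2, beside 1.36% of all genes higher and 2.44% lower with limma. At an unadjusted p under 0.05 there was 1, Mt-nd3, already given. AY172581.9 fell further, by 0.59 ± 0.14 (adjusted p = 0.0351), with every day 7 library below every day 3 library, but this call was lost under 11 of 21 alternatives, including edgeR (adjusted p = 0.074), TMM scaling (adjusted p = 0.0766), leaving out tissue replicate 1 or 3, day 3 replicate 1 or 2, or any day 7 library (adjusted p = 0.0543 to 0.141). AY172581.24 differed by -0.73 ± 0.20 (adjusted p = 0.0636), and this passed under 4 of 21 alternatives, among them without day 3 replicate 3 (-0.92, adjusted p = 0.0257).

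In the induction experiment times were compared within litter. The Mt- rows took 0.553%, 1.05% and 0.643% of reads at 0 h in litters 1, 2 and 3. They took 0.761%, 0.690% and 0.443% at 2 h, 0.661%, 0.428% and 0.371% at 12 h and 0.473%, 0.550% and 0.301% at 48 h. At 48 h each litter was below its own 0 h value. Of the 12 Mt- rows tested, 2 were lower at 48 h than at 0 h and none was higher, beside 2.13% and 2.22% of the 12450 genes tested. The comparisons with 2, 12 and 48 h share the 0 h libraries, and the rows of a library share its total, so their number is not a number of independent results. Leydig cell markers summed to 59.0 to 95.3 CPM at 0 h and 108 to 172 CPM at 48 h, with 2 of 5 tested higher. Their sum was already 93.7 to 234 CPM at 2 h, and it was 61.4 to 134 CPM at 12 h. Macrophage markers summed to 11.6 to 48.3 and 10.9 to 111.7 CPM, with a median log2 fold change of 1.08 and 0 of 5 called. Of the Sertoli cell markers 1 of 9 was higher, and of the myoid cell markers 1 of 6 was lower. The part of these cell types in the 48 h values was not tested. More cells of a type and more RNA per cell cannot be told apart here.

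Mt-nd2, a subunit of the complex I membrane arm, was at 442, 774 and 505 CPM at 0 h in litters 1, 2 and 3. It was at 631, 518 and 335 CPM at 2 h, at 534, 338 and 276 CPM at 12 h and at 300, 374 and 194 CPM at 48 h. The 48 h values were 0.679, 0.484 and 0.384 times the 0 h value of the same litter, and the groups did not overlap. Mt-nd2 fell by 0.99 ± 0.22 at 48 h (adjusted p = 0.0341). This call was lost under 6 of 21 alternatives: without the litter block (adjusted p = 0.237), with no filter (adjusted p = 0.0735), and without 0 h replicate 2, 0 h replicate 3, 48 h replicate 1 or 48 h replicate 3 (adjusted p = 0.116 to 0.163).

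Mt-nd3 was lower after 0 h at every time in every litter, with a narrow spread. It was at 103, 114 and 90.9 CPM at 0 h, at 89.4, 88.7 and 75.5 CPM at 2 h, at 91.8, 96.5 and 76.1 CPM at 12 h and at 82.0, 83.7 and 70.0 CPM at 48 h. The 48 h values were 0.798, 0.734 and 0.770 times the 0 h value of the same litter. Mt-nd3 fell by 0.38 ± 0.05 at 48 h (adjusted p = 0.00405), a call lost under 1 of 21 alternatives, the fit without the litter block (adjusted p = 0.214).

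At 2 h Mt-nd3 was the 1 Mt- row of 12 called lower, beside 0.289% of all genes, and none was called higher, beside 0.329%. It fell by 0.27 ± 0.05 (adjusted p = 0.0455), and the values were 0.870, 0.779 and 0.830 times 0 h. This call lay close to the threshold and was lost under 14 of 21 alternatives (adjusted p from 0.00569 to 0.42 over all 21). They include leaving out any 0 h or 2 h library, 12 h replicate 1 or 2, or 48 h replicate 2 or 3.

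The other 10 Mt- rows tested at 48 h differed from 0 h by -0.52 to -0.91 and did not pass (adjusted p = 0.056 to 0.169). The median of all 12 was -0.76, against -0.03 for all genes tested. Mt-atp6 was at 446, 856 and 499 CPM at 0 h and at 359, 434 and 219 CPM at 48 h (-0.82 ± 0.21, adjusted p = 0.056). Mt-co1 was at 2071, 3768 and 2360 CPM at 0 h and at 1811, 2026 and 1189 CPM at 48 h (-0.69 ± 0.22, adjusted p = 0.0959). At 48 h 7 of the 12 rows did not overlap 0 h, beside 12% of all genes lower without overlap.

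The litters did not move alike at the earlier times. In litter 1 the Mt- rows stood at a median of 1.37 times the 0 h value at 2 h and 1.21 times at 12 h, with 1 and 2 of 13 rows below 1. In litter 2 the medians were 0.655 and 0.406 and in litter 3 they were 0.686 and 0.579, with all 13 rows below 1 at both times. At 48 h the medians were 0.872, 0.507 and 0.447, with 12 of 13, 13 of 13 and 12 of 12 rows below 1. The row above 1 in litter 1 was Mt-nd5, at 1.03. Leaving out the 0 h library of litter 1, the lowest of the 3 in 12 of 13 rows, all 12 rows tested were called lower at 48 h and none higher, beside 1.84% and 1.04% of all genes in that fit. Litter 1 then had no 48 h to 0 h difference of its own. The calls in that fit rested mainly on litters 2 and 3, whose 48 h medians were lower.

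**Figure D5:**
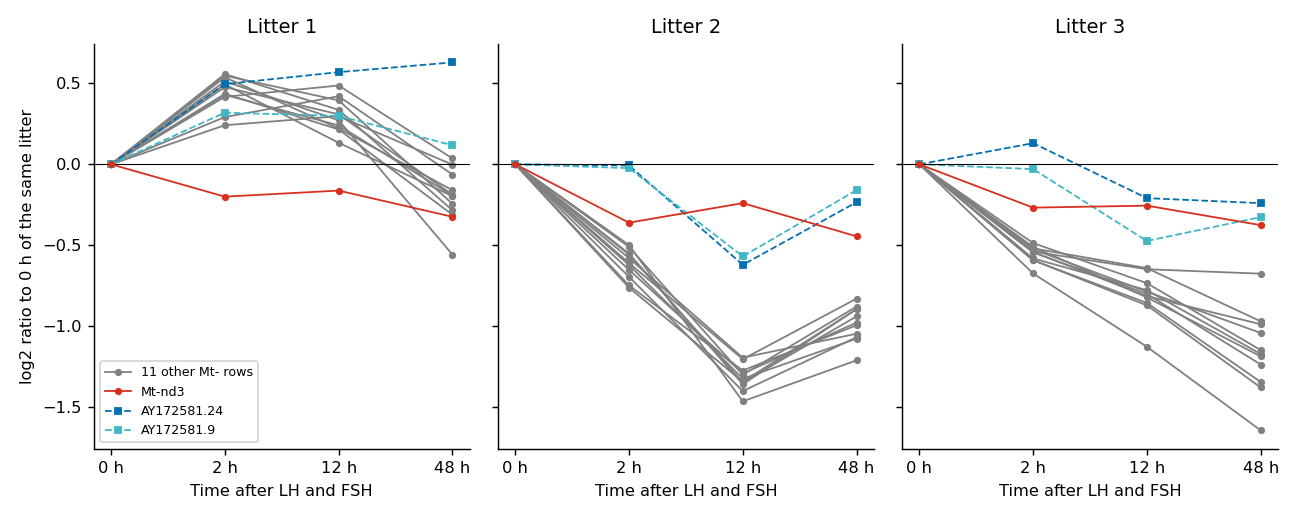
Log2 ratio of the CPM at 2, 12 and 48 h to the 0 h CPM of the same litter, 1 panel per litter, for the 12 Mt- rows tested (solid lines, Mt-nd3 in red) and 2 AY172581. rows (dashed). In litter 1 the Mt- rows other than Mt-nd3 rise above 0 at 2 and 12 h, in litters 2 and 3 all lie below 0, and at 48 h both dashed lines lie above all solid lines in each litter.

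At 12 h 0 of the 12 Mt- rows were called by limma, edgeR or DESeq2. Over all genes limma called 0 higher and 0 lower, so 0% in each direction, with 1000 genes at an unadjusted p under 0.05, edgeR called 0, and DESeq2 called 20 higher and 1 lower. The Mt- rows differed by -0.22 to -0.68, 11 of 12 with an unadjusted p under 0.05 and none after adjustment (adjusted p = 0.542 to 0.616).

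No AY172581. row was called at 48 h. AY172581.24 was at 43.9, 67.6 and 49.6 CPM at 0 h and at 67.9, 57.5 and 42.0 CPM at 48 h, higher in litter 1 and lower in litters 2 and 3. The difference was 0.05 ± 0.17 (adjusted p = 0.887). AY172581.9 was at 36.0, 49.9 and 36.1 CPM at 0 h and at 39.1, 44.7 and 28.8 CPM at 48 h (-0.12 ± 0.13, adjusted p = 0.612). Per 100 reads in Mt- rows the AY172581. rows had 1.52, 1.17 and 1.38 reads at 0 h and 2.36, 1.96 and 2.43 at 48 h, higher in each of the 3 litters. In the fit relative to the summed Mt- rows, AY172581.24 stood 0.80 ± 0.32 higher at 48 h with limma (adjusted p = 0.0433) and 0.81 higher with edgeR (adjusted p = 0.0611), so the call was lost with edgeR. AY172581.9 stood 0.63 ± 0.32 higher and did not pass (adjusted p = 0.0705). That fit called 41.2% of all genes higher and 0.0161% lower. The remaining 21 AY172581. rows were at 0 in all 12 induction libraries, where 3 reads equal 0.106 to 0.19 CPM. The contrast with the baseline libraries is given below.

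Nuclear genes of the same machinery are given for comparison. At day 3, 6 of 18 tested nuclear subunits of complex I, 3 of 8 of complex III, 4 of 9 of complex IV and 6 of 14 of complex V were lower than tissue and none was higher, beside 26.8% and 29.1% of all genes. At day 7 the counts were 7, 4, 4 and 8, again with none higher, beside 31.4% and 28.5%. The medians at day 7 were -0.26, -0.39, -0.47 and -0.36, beside -0.45 for the 13 Mt- rows and -0.05 for all genes tested. Atp5f1b, the catalytic beta subunit of complex V, went from 1699 ± 146 to 974 ± 56.8 CPM at day 7 (SD, n = 3), a fall of 0.80 on the log2 scale, and Cox7a2, a small complex IV subunit, from 112 ± 11.2 to 68.5 ± 4.6 CPM. Complex II, which has no mitochondrially encoded subunit, had 2 of 4 genes lower at days 3 and 7, Sdha and Sdhb.

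Among the genes that make and keep these RNAs, Tfam, which packages the mitochondrial genome and starts its transcription, fell at all 3 culture days, from 103 ± 6.08 CPM in tissue to 54.2 ± 4.71 CPM at day 7 (-0.92 ± 0.10, adjusted p = 4.45e-06). Polrmt, the mitochondrial RNA polymerase, was at 27.4 ± 2.45 and 21.03 ± 2.01 CPM and did not pass (adjusted p = 0.074), although it did at day 5 (adjusted p = 0.0103). Lrpprc, which stabilises the mitochondrial messengers, fell from 175 ± 10.9 to 118 ± 10.2 CPM (-0.57 ± 0.14, adjusted p = 0.00272). Of 20 RNA processing and stability genes, 11 were lower and 1 higher at day 7, and Elac2, which cuts the 3′ ends of transfer RNAs from the precursor, went from 68.4 ± 5.12 to 35.9 ± 4.61 CPM.

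Of 70 tested proteins of the mitochondrial ribosome, 39 were lower and 1 higher at day 7, with a median of -0.42, beside -0.05 for all genes tested. The shares over all genes at day 7, 31.4% lower and 28.5% higher, apply to every nuclear list counted at that day. Mrps5 went from 49.8 ± 3.23 to 24.4 ± 1.41 CPM. The aminoacyl-tRNA synthetases were mixed, with 3 of 15 higher and 4 lower; Pars2, which charges proline, went from 4.61 ± 0.37 to 15.7 ± 1.15 CPM. In the induction experiment none of the nuclear lists above had a called gene at 2, 12 or 48 h except complex V, where 1 of 13 genes, Atp5mf, was lower at 48 h. Tfam was at 49.0 ± 2.79 CPM at 0 h and 48.9 ± 4.36 CPM at 48 h. Further lists were weaker or mixed at day 3, beside 26.8% of all genes lower and 29.1% higher. Of 10 mitochondrial transcription genes, 3 were lower and 0 higher, and of 10 mitochondrial DNA maintenance genes 2 were lower and 3 higher. Biogenesis regulators had 2 of 8 lower and 3 higher, and mitophagy genes 1 of 7 lower and 4 higher.

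The ratios of some rows differed between the 2 experiments, and levels were not tested between them. Mt-nd4 stood at 0.542 to 1.18 times Mt-nd4l in the baseline libraries and at 18.9 to 28.0 times in the induction libraries. Mt-atp6 stood at 169 to 578 times Mt-atp8 in the former and at 681 to 2796 times in the latter. Each pair of genes overlaps in the genome, so some reads can be given to either row, and nuclear copies of mitochondrial sequence can also share reads. The part of either in these ratios was not tested. The 21 AY172581. rows of low level also differed. They summed to 5.98 to 17.9 CPM in the baseline libraries and had no reads in any of the 12 induction libraries. The part of library making and of counting in this was not tested. Within an experiment the levels of Mt-nd4, Mt-nd4l and Mt-atp8 are taken as uncertain.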

How the data were processed

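Per the labels' protocols, poly-T selected RNA went into non-directional NovaSeq libraries primed with random hexamers. The submitters' processing notes name STAR and the build mRatBN7.2. Which tool and annotation gave the counts is not given in the sources used here. The authors deposited CPM values; all were whole multiples of 1 read to within 0.01 read, so reads were recovered for edgeR 4.0.16 and DESeq2 1.42.0, run as alternatives.

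Each experiment's 12 libraries were fitted on log2(CPM + 1) with limma 3.58.1 (R 4.3.3), a trended prior and genes of at least 1 CPM in at least 3 libraries, with litter as a block in the induction experiment. P-values are two-sided and Benjamini-Hochberg adjusted over all genes tested, called under 0.05. The labels name the litters: 18 pairs of libraries of 1 litter had a median correlation of deviations from group means of 0.479 across genes (16 above 0.1). The 18 baseline pairs of 1 replicate number had 0.00254 (5 above 0.1) and were not blocked. No 2 libraries of the same group were identical, and the closest pair within a group differed by a chi-square of 6.36 per gene. Libraries of different groups were not compared in this way.

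All Mt- rows were named, up to 6 AY172581. rows of highest mean, up to 3 called genes per nuclear list with at least 5 CPM, and Tfam, Polrmt and Lrpprc. Members, lists and tests were chosen with earlier results of these data known. The procedure was tested on simulated data. Intervals of counts cover counting error only.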

Additional observations from a re-analysis of the deposited data

How the results depend on the processing

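Counts of Mt- rows called were followed under 21 alternatives, with selected differences of single Mt- rows and of AY172581.24, AY172581.9 and AY172581.2. The alternatives were pseudocounts of 0.1 and 5, no filter, CPM over non-mitochondrial rows, TMM scaling, edgeR and DESeq2. The others were the replicate block (in the induction experiment, no replicate block), the compared groups alone, and each library left out. Nuclear genes and lists and AY172581.18 were not followed in this way. The fit relative to the summed Mt- rows was run with limma and edgeR only. Of 1470 values for single rows, 1363 kept direction and side of the threshold. Both scalings moved the median of all genes by less than 0.1. Counts of Mt- rows called moved by over 1.5 times as follows. With the compared groups alone, day 7 gave 8 lower and 1 higher, and 2 h gave 0 lower. At 2 h no filter, TMM scaling and no replicate block each gave 0 lower. At 48 h no filter gave 1 lower, DESeq2 6 and no replicate block 0. In the baseline the replicate block changed no count of Mt- rows by over 1.5 times. Leaving out single libraries gave 0 to 2 higher and 2 to 5 lower at day 3, 0 to 2 higher and 2 to 6 lower at day 5, 3 to 6 lower at day 7, 0 to 1 lower at 2 h and 1 to 12 lower at 48 h. The 2 higher at days 3 and 5 came without day 3 replicate 3, and the 6 at day 7 without day 3 replicate 3 or day 5 replicate 1. The 2 lower at day 5 came without tissue replicate 2 or day 5 replicate 3. At 48 h the 12 came without 0 h replicate 1, 4 without 12 h replicate 2 and 1 without 0 h replicate 2 or 3 or 48 h replicate 1 or 3. Among the differences followed, signs turned only for those that were not called, on leaving out libraries. At day 3 these were Mt-co1 (-0.69 to 0.00333), Mt-nd4l (-0.55 to 0.076), Mt-nd5 (-0.22 to 0.57) and Mt-nd6 (-0.070 to 0.64). At 48 h it was AY172581.24 (-0.20 to 0.22). The cause was not tested. A row with at most 3 reads in a library cannot be told from 0 at this depth.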
